A study of Caenorhabditis elegans with 33 samples.

Results

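Chitinases are enzymes that cut chitin, and chitin synthases make it. 5 genes of Caenorhabditis elegans were followed here: the chitinase genes cht-1, cht-2, cht-3 and cht-4, and chs-2, the chitin synthase gene of the pharynx. All 5 were matched by symbol among the 18811 genes listed for each library. cht-1 set the choice because its level was lower in animals on mutant bacteria than in animals on BW25113, so every value of cht-1 against BW25113, and every mean over the mutants against BW25113, is given as a description with no test.

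The animals were wild-type N2, and RNA came from whole bodies of synchronized adults. 10 groups of 3 libraries came from animals fed Escherichia coli mutants named crl, iaaA, purH, torY, yccU, ycdC, ycgJ, yghZ, yjgU and ypdF, and 1 group of 3 from animals fed BW25113, a laboratory strain of that species. The titles read yjgU where the treatment labels read yigU, so the identity of that mutant is uncertain. Nothing in the sources used here says what kind of mutation each strain carries, how old the adults were, how many made up a library or whether replicates were separate cultures. The spread behind each p-value is that of these libraries alone and may be technical.

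Chitin is a polymer of N-acetylglucosamine. In C. elegans it is known from the eggshell, where chs-1 is required, and from the cuticle lining of the pharynx with its grinder, where chs-2 is required. The pharyngeal lining is shed and rebuilt at each molt, and the eggshell is opened at hatching. Chitinases can take part in such turnover and can also act on chitin of other organisms. Bulk RNA cannot tell fewer cells of a type from less RNA per cell.

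Libraries held 20459806 to 22666691 expected counts (median 22330178). The levels below are CPM, which are counts relative to a library size scaled with edgeR's TMM factors, and differences are log2 fold changes fitted by edgeR with their standard error (SE). A call is an adjusted p under 0.05 in edgeR's quasi-likelihood test, with Benjamini-Hochberg adjustment over 14696 genes. The 3 libraries of 1 group often differed widely. purH replicate 1 stood apart from the rest: the summed level of 8 intestinal marker genes was 4232 CPM there, against 11221 CPM in the next lowest of the mutant libraries, and that of 4 body wall muscle genes was 383 CPM there. Markers of intestine, muscle, neurons and germline were present in all 33 libraries.

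The chitinase genes lie on 4 chromosomes. In the WBcel235 build, cht-1 is on chromosome X from 3397613 to 3400017 on the minus strand, with 4 exons. cht-2 is on chromosome II from 8520925 to 8523490 with 9 exons, cht-3 on chromosome IV from 7003623 to 7009268 with 15 exons, and both are on the plus strand. cht-4 is on chromosome III from 1653723 to 1657480 on the minus strand, with 7 exons. chs-2 is on chromosome II from 196985 to 211941 on the plus strand, with 22 distinct exons in 3 annotated transcripts. No pair of these genes overlaps. cht-1 shares 45 exonic bases with slcf-2 on the opposite strand. Strandedness of the libraries is not stated, so reads in those bases cannot be assigned by strand.

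Compared per length, on the authors' TPM values, cht-1 and cht-3 were the most abundant of the 5. cht-1 ranged from 1.01 to 35.7 TPM over the 33 libraries (median 10.8), and cht-3 from 1.80 to 33.3 TPM (median 8.90). cht-4 ranged from 0.870 to 17.1 TPM (median 4.16). cht-2 and chs-2 were low, with medians of 0.140 and 0.350 TPM. cht-2 had 0 to 64 expected counts per library and chs-2 had 10 to 134, so both were read at low depth.

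**Figure D1:**
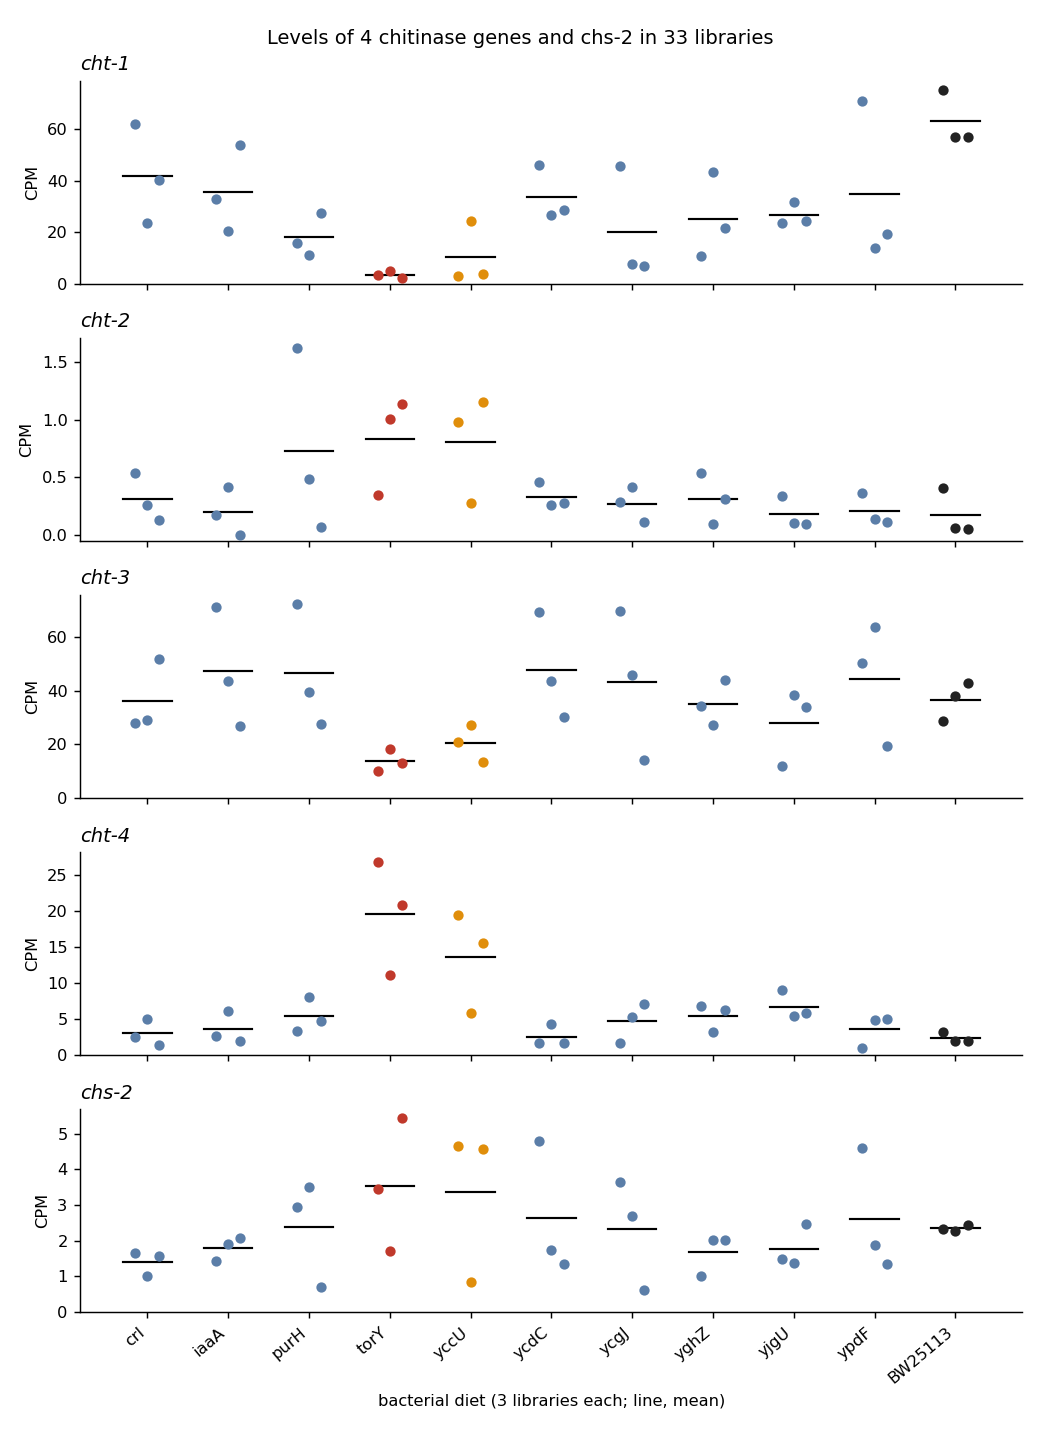
Level of each gene in every library, in CPM on TMM-scaled library sizes (vertical axis, linear, with its own range for each gene), by bacterial diet; points are libraries, lines are means of 3. The 3 torY libraries are among the 5 lowest for cht-1 and the 5 highest for cht-4.

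cht-1 was lower on average on each of the 10 mutants than on BW25113, by amounts that differed widely between mutants. Its level was 3.45, 5.1 and 2.19 CPM in torY libraries, against 75.0, 57.1 and 56.7 CPM in BW25113 libraries. In yccU libraries it was 2.97, 24.3 and 3.93 CPM. All torY libraries were thus far below all BW25113 libraries, and yccU replicate 2 lay well above the other two of its group.

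The other mutants lay between these levels. cht-1 was at 15.8, 11.2 and 27.4 CPM in purH libraries, and at 45.6, 7.57 and 7.04 CPM in ycgJ libraries. In yghZ libraries it was at 10.9, 43.2 and 21.7 CPM, and in yjgU libraries at 23.7, 31.8 and 24.4 CPM. The yjgU libraries were close to each other, whereas single libraries of ycgJ and yghZ stood above their partners.

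ycdC, ypdF, iaaA and crl had the highest means among the mutants. cht-1 was at 46.0, 26.8 and 28.6 CPM in ycdC libraries and at 71.0, 13.9 and 19.2 CPM in ypdF libraries. It was at 32.9, 20.4 and 53.9 CPM in iaaA libraries and at 62.0, 23.5 and 40.1 CPM in crl libraries. Replicate 1 of ypdF and replicate 1 of crl lay within the range of BW25113, and the other 28 of 30 mutant libraries lay below all BW25113 libraries.

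As a description, the log2 fold change of cht-1 against BW25113 was -4.13 ± 0.81 (SE) in torY, 17.5-fold lower, and -2.60 ± 0.76 in yccU, 6.07-fold lower. It was -1.80 ± 0.73 in purH, -1.65 ± 0.73 in ycgJ, -1.32 ± 0.72 in yghZ and -1.24 ± 0.72 in yjgU. In ycdC, ypdF, iaaA and crl it was -0.90 ± 0.71, -0.86 ± 0.71, -0.82 ± 0.71 and -0.59 ± 0.71. The mean over the 10 mutants was -1.59 ± 0.45, a level 3.01-fold lower than on BW25113. It was -1.52 without purH replicate 1.

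All 3 libraries of a mutant were below all 3 of BW25113 for cht-1 in 8 of the 10 mutants. The share of all genes tested that did so was 21.7% in torY, 15.2% in yccU, 10.2% in yjgU, 5.82% in yghZ, 5.59% in purH, 3.48% in ycgJ, 2.25% in iaaA and 2.03% in ycdC. cht-1 was chosen on this contrast, and nothing is read from its place in these shares. Ordered by mean level, each diet overlapped its neighbour in all 10 neighbouring pairs, so the order of the diets is not resolved step by step.

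A test that leaves BW25113 out asks whether the mutants differ from each other. cht-1 fell in torY relative to the mean of the other 9 mutants, by 2.82 ± 0.68 (SE) on the log2 scale, a 7.07-fold lower level (adjusted p = 0.00896, edgeR quasi-likelihood test). torY had the lowest mean, and its 3 libraries were among the 5 lowest of all 33. Of all genes tested, 16.8% were called in torY against the other 9 mutants, 6.54% as lower and 10.3% as higher, so a call there is not rare. The call was lost without torY replicate 1 (adjusted p = 0.0685) and without torY replicate 3 (adjusted p = 0.10).

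In yccU the difference from the other 9 mutants was -1.12 ± 0.59 and not called (adjusted p = 0.272, edgeR), with a 95% interval from -2.33 to 0.09. The other 8 mutants were at -0.23 to 1.11 and none was called. The F test over the 10 mutants did not call cht-1 (adjusted p = 0.116, edgeR), while 2.56% of all genes tested were called by it. DESeq2 gave an adjusted p of 0.00666 for the same question, and the edgeR test called cht-1 without yccU replicate 2 (adjusted p = 0.0153) or without ycgJ replicate 1 (adjusted p = 0.0345).

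**Figure D2:**
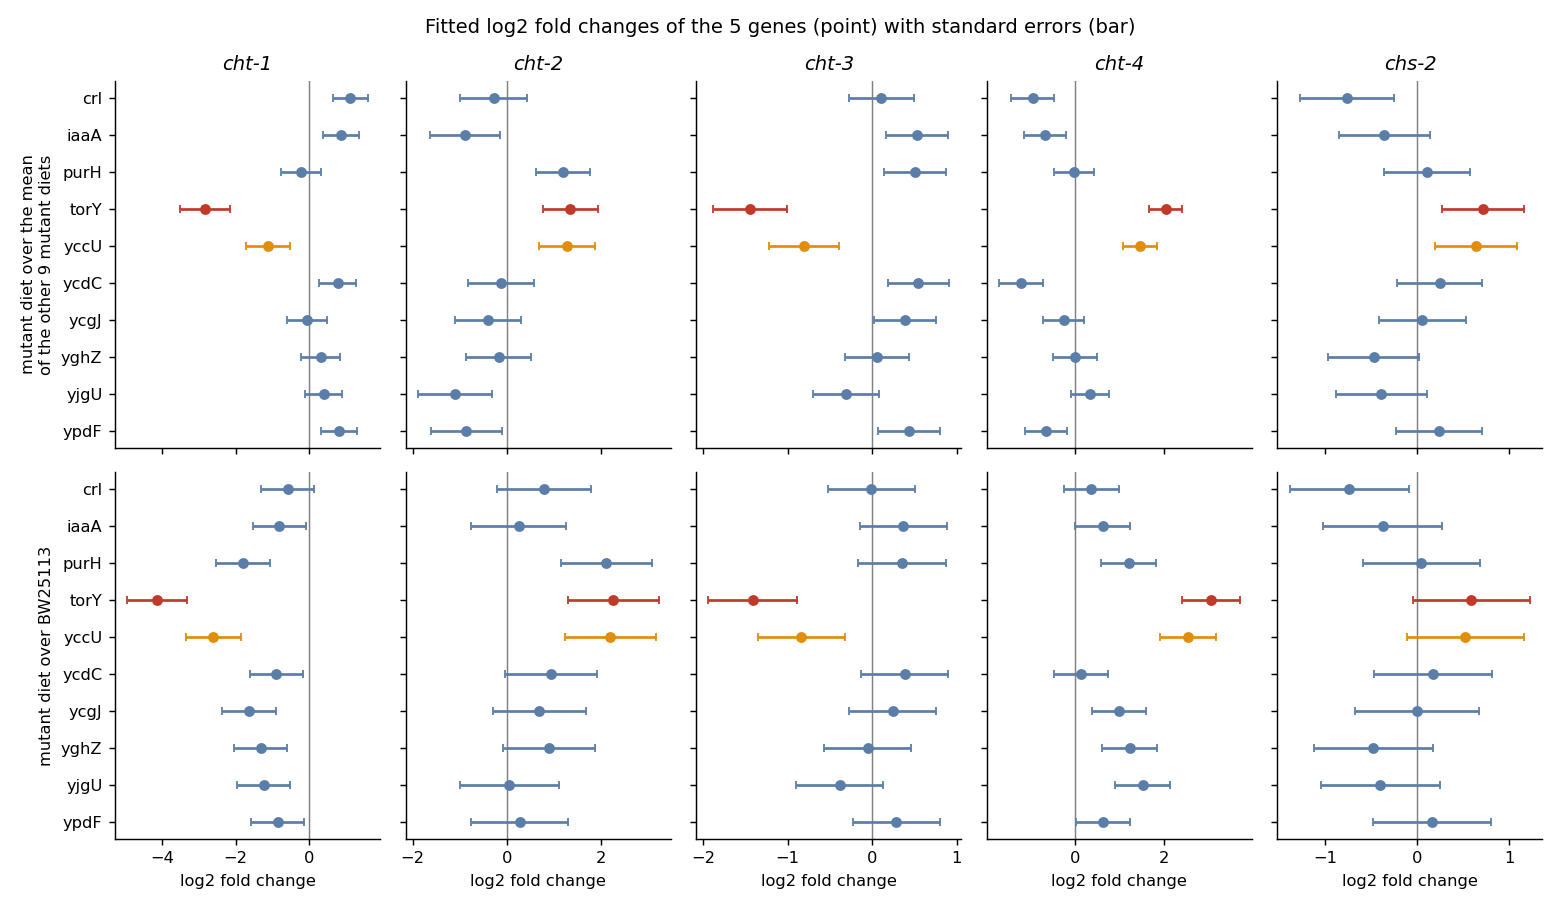
Fitted log2 fold change (horizontal axis) with its standard error for each gene and mutant diet, over the mean of the other 9 mutant diets in the upper row and over BW25113 in the lower row. In torY, cht-1 is at -2.82 and cht-4 at 2.04 against the other mutants.

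slcf-2, the gene that overlaps cht-1, differed in the opposite direction. It was at 3.38, 1.35 and 4.12 CPM in torY libraries, 3.86, 1.22 and 4.44 CPM in yccU libraries, and 0.874, 0.919 and 1.29 CPM in BW25113 libraries. Against the other 9 mutants it rose by 1.47 ± 0.34 in torY and by 1.59 ± 0.34 in yccU on the log2 scale (adjusted p = 0.00684 and 0.00927, edgeR). These calls were lost without replicate 1 or 3 of the mutant or with total counts alone (adjusted p from 0.0722 to 0.331). In the same comparisons, 10.3% of all genes tested were called higher in torY and 3.31% in yccU. Against BW25113 edgeR called slcf-2 in no mutant (adjusted p = 0.0542 in torY and 0.0726 in yccU), and DESeq2 called it in both (adjusted p = 0.0242 and 0.0238). It was named after its values were seen, because of the shared bases.

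cht-4 was higher on average on each of the 10 mutants than on BW25113, and so was cht-2. All 10 comparisons share the same 3 BW25113 libraries. How many genes have all 10 means higher was not counted, so nothing is read from that agreement. cht-4 rose in torY and yccU. Its level was 26.8, 11.1 and 20.9 CPM in torY libraries and 19.4, 5.88 and 15.6 CPM in yccU libraries, against 3.21, 1.90 and 1.91 CPM in BW25113 libraries. Neither mutant overlapped BW25113, and yccU replicate 2 was the lowest of these mutant libraries.

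Relative to BW25113 the log2 fold change was 3.06 ± 0.65 in torY, 8.35-fold higher (adjusted p = 0.0118, edgeR), and 2.54 ± 0.64 in yccU, 5.81-fold higher (adjusted p = 0.0355). Of all genes tested, 14.9% were called in torY against BW25113, 9.66% as higher and 5.26% as lower. In yccU 2.62% were called, 2.5% as higher and 0.122% as lower. When BW25113 replicate 2 was left out, edgeR called 0 genes in either mutant, with 4063 genes in torY and 2824 in yccU at an unadjusted p under 0.05, and the adjusted p of cht-4 was then 0.0717 in torY and 0.189 in yccU. The yccU call was also lost without BW25113 replicate 1 or 3, yccU replicate 1 or 3, or with scaling by total counts alone (adjusted p from 0.0509 to 0.166).

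In the other 8 mutants cht-4 was not called against BW25113 in the fit of all libraries, and in yjgU it was called with the 6 libraries alone (adjusted p = 0.0366, edgeR). It was at 8.97, 5.38 and 5.77 CPM in yjgU libraries, at 6.83, 3.26 and 6.28 CPM in yghZ libraries, and at 3.35, 8.06 and 4.79 CPM in purH libraries. These groups lay wholly above BW25113 but near its range, with log2 fold changes of 1.52 ± 0.62, 1.22 ± 0.62 and 1.2 ± 0.62. The libraries of ycgJ were at 1.73, 5.22 and 7.04 CPM and those of ypdF at 1.01, 4.81 and 5.00 CPM. iaaA libraries had 2.60, 6.17 and 1.95 CPM, crl libraries 2.57, 4.97 and 1.43 CPM, and ycdC libraries 1.68, 4.27 and 1.62 CPM. Each of these 5 mutants overlapped BW25113, and their log2 fold changes ran from 0.12 to 0.99.

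Over all mutants, 22 of 30 libraries were above all BW25113 libraries for cht-4 and 5 were below all of them. The share of all genes tested with such counts was not taken, so they are a description. All 3 libraries lay above all 3 of BW25113 in 5 mutants, where the share of genes tested that did so was 25.5% in torY, 19.2% in yccU, 15.1% in yjgU, 9.05% in yghZ and 5.93% in purH. The mean over the 10 mutants was 1.23 ± 0.50 on the log2 scale against BW25113, a description, and 1.35 without purH replicate 1.

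cht-4 also differed among the mutants, and was the 1 member that the F test over the 10 mutants called (adjusted p = 0.0156, edgeR), where 2.56% of all genes tested were called. Against the other 9 mutants it rose in torY by 2.04 ± 0.37, 4.11-fold (adjusted p = 0.000698), and in yccU by 1.46 ± 0.39, 2.75-fold (adjusted p = 0.0339), on the log2 scale. Of all genes tested 16.8% were called in torY against the other 9 mutants, 10.3% as higher. The background in yccU was 3.33% of genes called, 3.31% as higher and 0.0272% as lower, and purH was the only further mutant with calls, at 0.15%.

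The torY call against the other mutants was kept in all 33 fits that left out 1 library, with adjusted p from 0.000339 to 0.0386. The yccU call was lost without yccU replicate 1 or 3, purH replicate 1 or yghZ replicate 2, and also with no filter on low counts or with total counts alone (adjusted p from 0.0676 to 0.606). The F test lost cht-4 without torY replicate 1 (adjusted p = 0.108), without torY replicate 3 (adjusted p = 0.0729), with total counts alone (adjusted p = 0.187) and with the 30 mutant libraries alone (adjusted p = 0.0505).

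**Figure D3:**
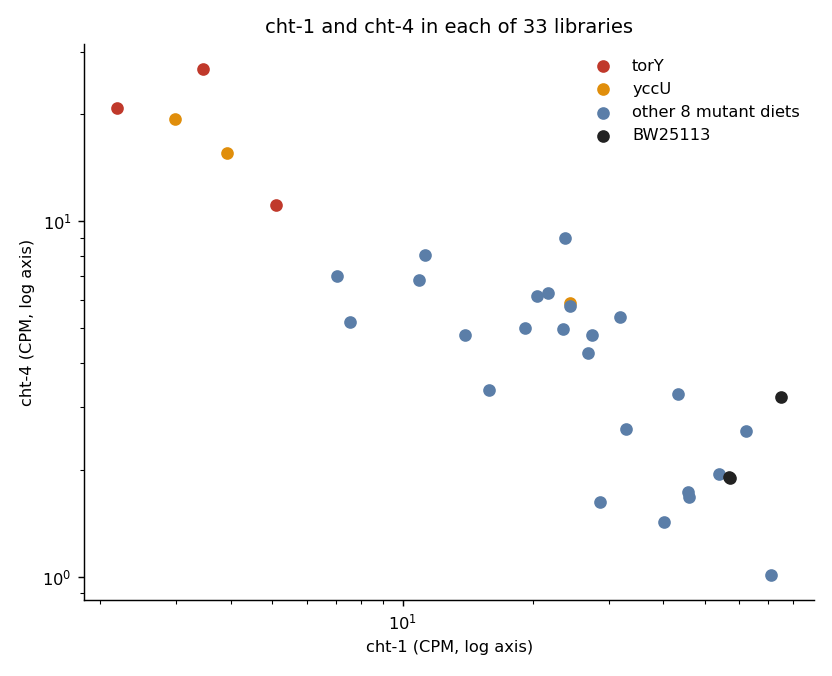
Level of cht-1 (horizontal) and cht-4 (vertical) in each library, in CPM on logarithmic axes. The 3 torY libraries and yccU replicates 1 and 3 are at the upper left, the BW25113 libraries are at the lower right, and the other mutant libraries, with yccU replicate 2 among them, spread between.

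cht-1 and cht-4 lay at opposite ends in the same libraries. The 5 libraries with the lowest cht-1 level, the 3 of torY and replicates 1 and 3 of yccU, were also the 5 with the highest cht-4 level. Many genes were set apart in these mutants: 25.5% of all genes tested lay wholly above BW25113 in torY and 19.2% in yccU. Wholly below it lay 21.7% and 15.2%. How many other genes have these 5 libraries at an extreme was not counted, so the match is not read as particular to this pair. The next lowest in cht-1 was ycgJ replicate 3, at 7.04 CPM for both genes. On the authors' TPM values, which are per length, cht-4 was above cht-1 in 9 of 33 libraries. In torY libraries cht-4 was 13.2, 3.71 and 16.3 times cht-1, whereas in BW25113 libraries cht-1 was 13.7, 17.5 and 17.4 times cht-4.

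The makeup of chitinase RNA shifted accordingly. cht-4 made up 82.0%, 51.9% and 75.5% of the summed TPM of the 4 genes in torY libraries, against 5.54%, 3.86% and 3.75% in BW25113 libraries. cht-1 made up 6.22%, 14.0% and 4.64% in torY libraries, against 75.9%, 67.8% and 65.5% in BW25113 libraries. cht-1 was the most abundant of the 4 in 18 libraries, cht-3 in 9 and cht-4 in 6. These shares rest on the same libraries as the fold changes, and no test was made of them.

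**Figure D4:**
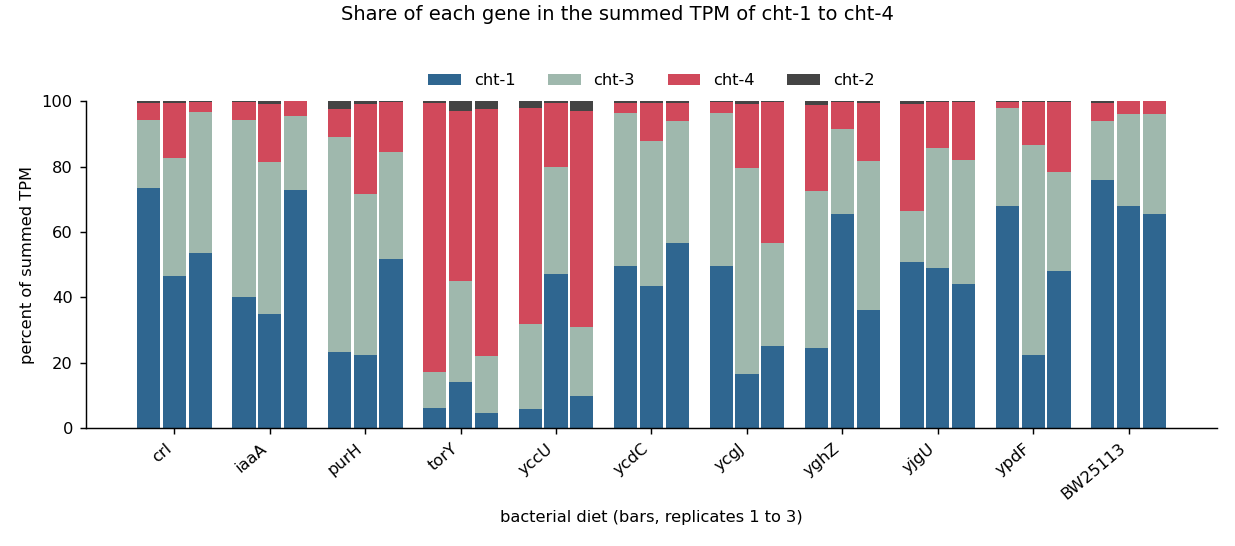
Share of each gene in the summed TPM of cht-1 to cht-4 (vertical axis, percent), with 1 bar for each library, grouped by diet. cht-4 exceeds 50% in the torY libraries and in yccU replicates 1 and 3, and cht-1 exceeds 65% in the BW25113 libraries.

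cht-3 fell in torY relative to the other mutants. Its level was 9.88, 18.2 and 13.1 CPM in torY libraries and 20.8, 27.0 and 13.6 CPM in yccU libraries, against 28.7, 38.1 and 42.7 CPM in BW25113 libraries. Both mutants lay wholly below BW25113, as 21.7% of all genes tested did in torY and 15.2% in yccU. Against the other 9 mutants cht-3 was 2.73-fold lower in torY, with a log2 fold change of -1.45 ± 0.44 (adjusted p = 0.0280, edgeR). That call was lost without torY replicate 1 or 3 (adjusted p = 0.152 in each) and with scaling by total counts alone (adjusted p = 0.0964).

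Against BW25113 cht-3 was not called in any mutant by edgeR. The log2 fold change was -1.41 ± 0.53 in torY (adjusted p = 0.0624, edgeR) and -0.84 ± 0.52 in yccU (adjusted p = 0.289). In torY it was called by DESeq2 (adjusted p = 0.0384), by edgeR on the 6 libraries alone (adjusted p = 0.00868) and without ycgJ replicate 3 (adjusted p = 0.0473). The other 8 mutants were between -0.39 and 0.38, and the F test over the 10 mutants did not call the gene (adjusted p = 0.225). Within a group the libraries differed by up to 4.94-fold, in ycgJ, where they were at 69.6, 45.9 and 14.1 CPM. The mean over the 10 mutants was -0.11 ± 0.38 on the log2 scale and 0.37 with scaling by total counts alone, so its sign depends on the scaling.

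cht-2 was read at too low a depth for a firm statement. Its expected counts were 5, 26 and 26 in torY libraries and 22, 5 and 27 in yccU libraries, against 7, 1 and 1 in BW25113 libraries. purH libraries held 64, 12 and 1, and iaaA replicate 3 held 0. The groups overlapped in every comparison with BW25113, and the highest count was that of purH replicate 1.

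No mutant was called for cht-2 in the fit by diet, which does not use the replicate numbers. The log2 fold change against BW25113 was 2.25 ± 0.97 in torY (adjusted p = 0.0956, edgeR), 2.20 ± 0.97 in yccU (adjusted p = 0.149) and 2.11 ± 0.96 in purH (adjusted p = 0.572). Against the other 9 mutants torY was at 1.34 ± 0.58 (adjusted p = 0.0998), and the F test gave an adjusted p of 0.338. The mean over the 10 mutants was 1.04 ± 0.80, and leaving out 1 BW25113 library moved it to between 0.60 and 2.57.

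chs-2, which makes the chitin of the pharyngeal lining, was not called in any test. Its level was 3.45, 1.70 and 5.43 CPM in torY libraries and 4.66, 0.833 and 4.57 CPM in yccU libraries, against 2.33, 2.27 and 2.43 CPM in BW25113 libraries. The BW25113 libraries were within 1.07-fold of each other, and the mutant libraries were on both sides of them, 19 of 30 below all 3 and 11 above. Such agreement of 3 BW25113 libraries was not seen in the mutant groups, where chs-2 differed by up to 5.82-fold, in ycgJ. The median over all groups, BW25113 with them, was 3.19-fold. The BW25113 libraries held only 40, 37 and 47 expected counts of chs-2, so nothing is read from their agreement. So narrow a range leaves little room for libraries within it, and the 19 and 11 are a description.

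Against BW25113 the log2 fold change of chs-2 was 0.59 ± 0.64 in torY (95% interval -0.72 to 1.90), 0.52 ± 0.64 in yccU and -0.74 ± 0.65 in crl, the lowest. The crl libraries, at 1.66, 1.00 and 1.56 CPM, the iaaA libraries, at 1.44, 1.92 and 2.07 CPM, and the yghZ libraries, at 1.02, 2.03 and 2.01 CPM, lay wholly below BW25113, where the share of genes tested that did so was 2.82% in crl, 2.25% in iaaA and 5.82% in yghZ. Adjusted p over the 10 mutants was 0.502 or more against BW25113 and 0.244 or more against the other mutants, and 0.766 in the F test (edgeR). The 95% limits over the 10 mutants against BW25113 ran from -2.07 in crl to 1.90 in torY. The mean over the 10 mutants was -0.05 ± 0.47 on the log2 scale and 0.39 with scaling by total counts alone.

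The second chitin synthase, chs-1 of the eggshell, fell in torY. It was at 32.5, 34.8 and 28.7 CPM in torY libraries and at 36.4, 62.2 and 36.5 CPM in yccU libraries, against 72.7, 85.4 and 124 CPM in BW25113 libraries. The log2 fold change in torY was -1.55 ± 0.40 against BW25113 (adjusted p = 0.0194, edgeR) and -1.36 ± 0.33 against the other 9 mutants (adjusted p = 0.00855). In yccU it was -1.06 ± 0.39 against BW25113 and not called (adjusted p = 0.0952). The call against BW25113 was lost without torY replicate 1 or 3, BW25113 replicate 2 or 3, or with total counts alone (adjusted p from 0.0544 to 0.0876), and that against the other mutants without torY replicate 1 or 3 (adjusted p = 0.0644 and 0.0942). In torY, 5.26% of all genes tested were called lower against BW25113 and 6.54% against the other 9 mutants.

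2 further chitinase genes that the annotation names cht-5 and cht-6 are listed under the locus names C08B6.4 and T05H4.7, and both were added after values were seen. T05H4.7 was at 0.760, 0.735 and 1.05 CPM in torY libraries and 0.843, 0.444 and 1.5 CPM in yccU libraries, against 0.291, 0.0613 and 0.310 CPM in BW25113 libraries. It rose against the other 9 mutants by 1.72 ± 0.48 in torY (adjusted p = 0.0201, edgeR) and by 1.87 ± 0.47 in yccU (adjusted p = 0.0245), on the log2 scale. It had only 0 to 35 counts per library, about the depth of cht-2. The share of all genes tested that was called higher against the other 9 mutants was 10.3% in torY and 3.31% in yccU. The torY call was lost without torY replicate 1 or 3 or with total counts alone (adjusted p from 0.0809 to 0.161). The yccU call was lost without yccU replicate 1 or 3 or yghZ replicate 2, with total counts alone and with no filter on low counts (adjusted p from 0.0513 to 0.508). Against BW25113 edgeR called it in neither (adjusted p = 0.0839 and 0.103), and DESeq2 gave an adjusted p of 0.0496 in torY. C08B6.4 was not called in torY or yccU in either comparison.

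The chitinase-like chil genes are a related family without called members. Of 28 listed, 22 were in the files and 10 passed the filter on low counts, and none of the 10 was called in any mutant against BW25113. In torY and in yccU 0 of the 10 had an unadjusted p under 0.05 in edgeR, and DESeq2 also called 0. The summed level of these 10 was 9.5 to 14.3 CPM in torY libraries and 10.7 to 13.3 CPM in yccU libraries, against 9.4 to 11.8 CPM in BW25113 libraries. The median log2 fold change was 0.22 in torY and 0.04 in yccU, beside medians of 0.01 and -0.01 over all genes tested. Of the 10, 6 were positive in torY and 5 in yccU. The largest estimate was that of chil-21, at 5.01 in torY and 5.49 in yccU without a call, named after its values were seen.

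Of genes that make the precursor of chitin, degrade its sugars or deacetylate it, 1 of 5, 1 of 5 and 1 of 2 were called in torY, where 14.9% of all genes tested were called. In torY against BW25113, F21D5.1, which encodes an enzyme of UDP-N-acetylglucosamine synthesis, fell to 39.5 ± 9.4 CPM (SD, n = 3) in torY, against 78.7 ± 9.2 CPM in BW25113 (log2 fold change -0.99 ± 0.33, adjusted p = 0.0422, edgeR). It was 1 of 5 tested in that list, whose median was -0.83. hex-1, a hexosaminidase gene, rose to 26.1 ± 4.1 CPM in torY, against 14.8 ± 1.4 CPM in BW25113 (0.82 ± 0.24, adjusted p = 0.0312), as 1 of 5 hexosaminidase genes with a median of 0.10. lgx-1, a gene of the chitin deacetylase type, rose to 14.1 ± 5.9 CPM in torY, against 3.47 ± 1.31 CPM in BW25113 (2.02 ± 0.66, adjusted p = 0.0414), and F48E3.8, the second gene of that list, was not called. Against the other 9 mutants, in torY, hex-1 was at 0.41 ± 0.17 and not called (adjusted p = 0.0897), while F21D5.1 fell (-0.97 ± 0.26, adjusted p = 0.0174) and lgx-1 rose (1.90 ± 0.40, adjusted p = 0.00289). In yccU against BW25113 edgeR called no gene of these 3 lists, 0 precursor genes, 2 hexosaminidase genes and 1 deacetylase-type gene had an unadjusted p under 0.05, and DESeq2 called 1 hexosaminidase gene. Against the other 9 mutants, lgx-1 also rose in yccU (1.46 ± 0.41, adjusted p = 0.0454, edgeR), where 3.31% of all genes tested were called higher. That list's count of called genes moved in 22 settings and stayed in 16. With 1 library left out, 0 to 2 precursor genes were called in torY against the other 9 mutants, and 0 to 1 deacetylase-type genes in either mutant.

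**Figure D5:**
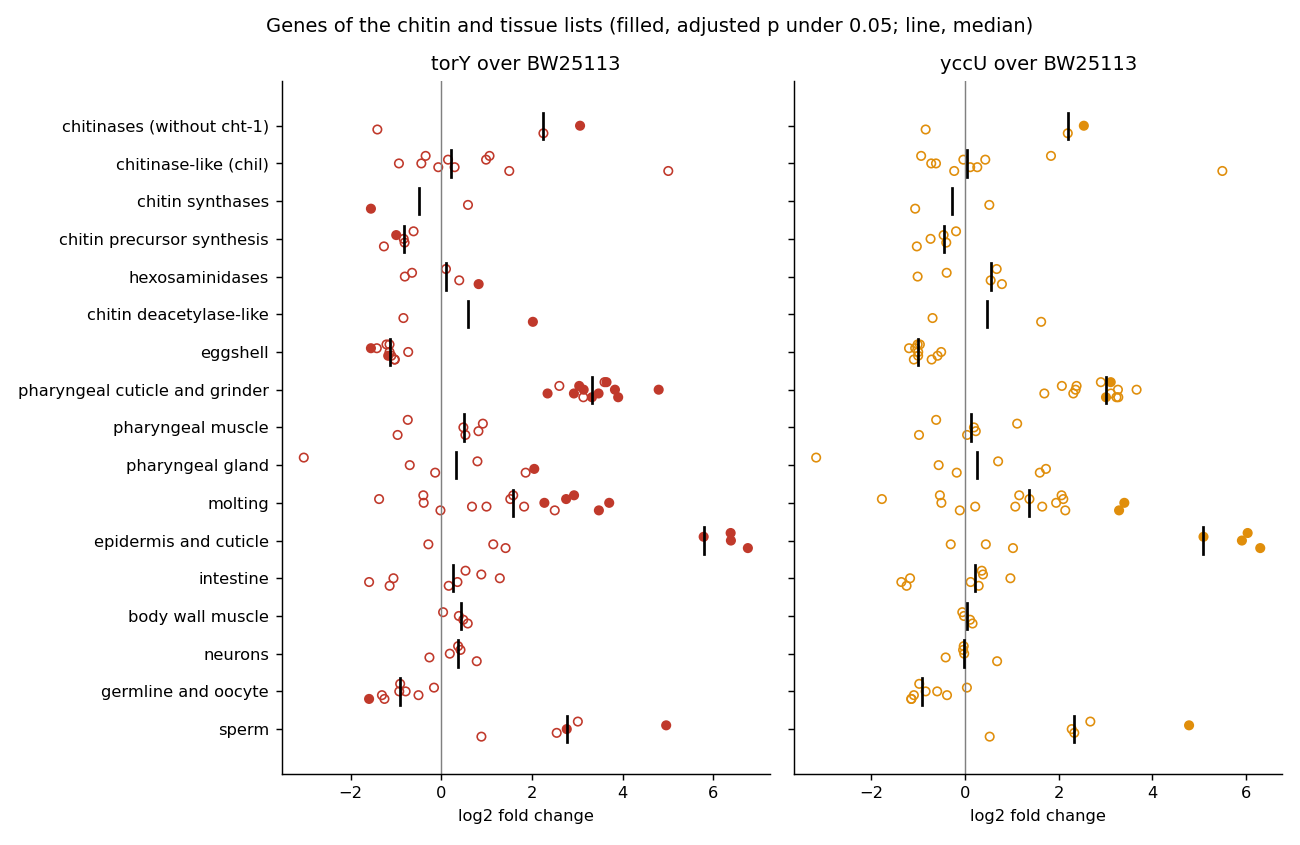
Log2 fold change over BW25113 (horizontal axis) of each tested gene of the chitin lists and tissue lists in torY and yccU; filled points were called at an adjusted p under 0.05 and lines are list medians. cht-1 is left out, the pharyngeal cuticle list has a median of 3.32 in torY, and the eggshell list has a median of -1.14.

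Most tested genes of the pharyngeal cuticle, and some of the molt and of the epidermal cuticle, rose in torY. Of 13 tested genes of the pharyngeal cuticle and grinder, 10 rose in torY against BW25113 and 2 in yccU, with list medians of 3.32 and 3.01. Of all genes tested, 9.66% rose in torY and 2.5% in yccU. DESeq2 called 13 of the 13 in torY and 11 in yccU, while it called 23.2% and 12.5% of all genes tested. At an unadjusted p under 0.05 in edgeR there were 13 and 12 of the 13, against 36.5% and 26.9% of all genes tested. abu-12 and abu-13 belong to a family of Q/N-rich proteins of that lining. abu-12 was at 25.0 ± 12.4 CPM in torY and 17.2 ± 11.9 CPM in yccU, against 2.00 ± 0.56 CPM in BW25113, and it rose in both (log2 fold change 3.65 ± 0.83 and 3.11 ± 0.81, adjusted p = 0.0130 and 0.0400, edgeR). abu-13 was at 31.6 ± 10.0 CPM in torY and 25.4 ± 18.1 CPM in yccU, against 3.16 ± 1.66 CPM in BW25113, with log2 fold changes of 3.32 ± 0.75 and 3.01 ± 0.75 (adjusted p = 0.0130 and 0.0349). The abu genes are paralogs, and reads shared between them could be split by the counting.

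Of 15 molting genes, 5 rose in torY and 2 in yccU, with medians of 1.59 and 1.38, where 9.66% and 2.5% of all genes tested rose. DESeq2 called 8 of the 15 in torY and 7 in yccU, and 10 and 9 had an unadjusted p under 0.05 in edgeR. 4 of the 15 had negative log2 fold changes in both mutants without a call, the lowest being nhr-25, a nuclear receptor gene, at -1.37 in torY and -1.77 in yccU, named after its values were seen. qua-1, a hedgehog-related gene needed for molting, was at 32.0 ± 14.2 CPM in torY and 28.1 ± 20.8 CPM in yccU, against 2.86 ± 0.91 CPM in BW25113 (log2 fold change 3.48 ± 0.76 and 3.29 ± 0.75, adjusted p = 0.0118 and 0.0318, edgeR). mlt-10, a molting gene expressed in the epidermis, was at 87.5 ± 41.5 CPM in torY, against 13.0 ± 3.5 CPM in BW25113 (2.75 ± 0.63, adjusted p = 0.0134), and was not called in yccU. lin-42, the period-related gene of molt timing, was at 281 ± 164 CPM in torY, against 36.9 ± 14.9 CPM in BW25113 (2.93 ± 0.70, adjusted p = 0.0149). Of 7 epidermal and cuticle genes, 4 rose in each of the 2 mutants, where 9.66% and 2.5% of all genes tested rose. They were the collagen genes rol-6, bli-1, bli-2 and lon-3, and the list medians were 5.79 and 5.09. The other 3, dpy-7, col-19 and sqt-3, were not called against BW25113, where col-19, the adult collagen gene, was at -0.29 in torY and -0.30 in yccU. Against the other 9 mutants, 6 of the 7 were called as higher in torY, where 10.3% of all genes tested were. rol-6 was at 210 ± 94.9 CPM in torY and 151 ± 108 CPM in yccU, against 2.49 ± 1.83 CPM in BW25113 (log2 fold change 6.39 ± 1.46 and 5.91 ± 1.43, adjusted p = 0.0132 and 0.0321, edgeR). lon-3 was at 123 ± 65.7 CPM in torY and 88.9 ± 63.3 CPM in yccU, against 1.12 ± 0.33 CPM in BW25113. The collagen gene bli-2 is beyond the 3 genes a list that the rule names, and was named after its values were seen.

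The summed levels give the values by library. The 13 pharyngeal cuticle genes summed to 1038, 532 and 911 CPM in torY libraries and 707, 213 and 703 CPM in yccU libraries, against 141, 56.4 and 106 CPM in BW25113 libraries. Of these 6 mutant libraries yccU replicate 2 was nearest to BW25113, as it was for cht-1 and cht-4. Higher values were not limited to these mutants: all 13 genes had positive log2 fold changes against BW25113 in purH, ycgJ and yjgU as well, with medians of 1.46, 1.72 and 1.72, although none was called. The median of the 30 mutant libraries was 141.0 CPM, against 140.5 CPM in the highest BW25113 library. Medians of the epidermal list were 2.46 to 3.16 in purH, ycgJ, yghZ and yjgU, again with no call. The 7 epidermal genes summed to 9651, 3884 and 5226 CPM in torY libraries, against 5721, 5386 and 5761 CPM in BW25113 libraries, so their sums overlapped. Of the genes that rose, rol-6 and lon-3 were a very small part of the BW25113 sums, so the overlap does not bear on them. The 10 eggshell genes summed to 13099, 7057 and 7122 CPM in torY libraries and 6468, 15406 and 8209 CPM in yccU libraries, against 20795, 24316 and 17747 CPM in BW25113 libraries.

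Of the 10 eggshell genes, 2 fell in torY, where 5.26% of all genes tested fell. They were chs-1 and egg-2, a gene of the oocyte surface that acts in egg activation, and none was called in yccU (1 at an unadjusted p under 0.05, and 0 called by DESeq2), with medians of -1.14 and -1.0. egg-2 was at 33.8 ± 6.7 CPM in torY, against 76.2 ± 21.0 CPM in BW25113 (log2 fold change -1.17 ± 0.35, adjusted p = 0.0321, edgeR). glp-1, the germline Notch receptor gene, was at 17.8 ± 5.9 CPM in torY, against 53.8 ± 24.7 CPM in BW25113 (-1.59 ± 0.54, adjusted p = 0.0467), and was not called against the other 9 mutants (adjusted p = 0.0571). Of 8 germline and oocyte genes, 1 fell in torY, which was glp-1, where 5.26% of all genes tested fell, and none was called in yccU (2 at an unadjusted p under 0.05, and 0 called by DESeq2), with medians of -0.92 and -0.91. Of 5 sperm genes, 2 rose in torY, fer-1 and peel-1, and 1 in yccU, peel-1, with medians of 2.77 and 2.33, where 9.66% and 2.5% of all genes tested rose. fer-1, needed for sperm activation, was at 5.12 ± 2.86 CPM in torY, against 0.741 ± 0.394 CPM in BW25113 (2.77 ± 0.73, adjusted p = 0.0214), and peel-1, which encodes a sperm-delivered toxin, averaged 1.91 CPM in torY, against 0.0539 CPM in BW25113. peel-1 was read at very low depth in BW25113, so the size of its log2 fold change (4.96 in torY and 4.78 in yccU) is uncertain. The 5 sperm genes summed to 14.7 to 14.9 CPM in torY libraries and 5.44 to 16.3 CPM in yccU libraries, against 1.40 to 3.57 CPM in BW25113 libraries. These directions were not limited to torY and yccU. In the other mutants, with no call, eggshell medians against BW25113 ran from -0.90 in purH to -0.15 in iaaA. Medians of the germline and oocyte list ran there from -0.80 in purH to -0.18 in iaaA, and those of the sperm list from 0.12 in ycdC to 1.84 in yghZ.

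Of 6 pharyngeal gland genes, 1 rose in torY, where 9.66% of all genes tested rose. It was phat-2, at 13.3 ± 4.8 CPM in torY, against 3.22 ± 2.19 CPM in BW25113 (2.05 ± 0.66, adjusted p = 0.0392, edgeR). In torY 3 of the 6 had positive log2 fold changes, with a list median of 0.33. phat-5 was at -3.03 in torY and -3.17 in yccU without a call, and was named after its values were seen. In yccU edgeR called none of the 6, 1 had an unadjusted p under 0.05, and DESeq2 called 1. No pharyngeal muscle gene (of 6), intestinal gene (of 8), body wall muscle gene (of 4) or neuronal gene (of 5) was called against BW25113 in torY or yccU by edgeR. The intestinal list was split, with 5 of the 8 log2 fold changes positive in each of these mutants. The vitellogenin genes vit-2, vit-5 and vit-6 were at -1.14, -1.59 and -1.06 in torY and at -1.24, -1.36 and -1.17 in yccU. They were named after their values were seen. At an unadjusted p under 0.05 there were 2 intestinal genes, 1 pharyngeal muscle gene and 1 neuronal gene in each of these mutants and 0 body wall muscle genes. DESeq2 called 2 intestinal genes and 1 neuronal gene in torY and 1 pharyngeal muscle gene in yccU. Against the other 9 mutants, edgeR called 1 of 6 pharyngeal muscle genes and 2 of 8 intestinal genes as higher in torY. There 10.3% of all genes tested were called higher. No body wall muscle or neuronal gene was called there. With 1 library left out these counts ran from 0 to 1 for pharyngeal muscle and from 0 to 3 for intestine. The part of germline, sperm and cuticle RNA in the levels of the chitinase genes was not tested. Against BW25113, edgeR called no gene of any list in torY without BW25113 replicate 2. In yccU it called none without any 1 of BW25113 replicates 1, 2 and 3 or yccU replicates 1 and 3. Each yccU call of a list gene against BW25113 thus rests on all 5 of these libraries. Against the other 9 mutants in torY, edgeR called 13 of 13 pharyngeal cuticle, 8 of 15 molting and 6 of 7 epidermal genes as higher. With 1 library left out, 7 to 13, 4 to 10 and 4 to 6 were called. In yccU 3, 5 and 4 were called as higher there, and 0 to 10, 0 to 9 and 0 to 5 with 1 library left out. The share of all genes tested that was called higher was 10.3% in torY and 3.31% in yccU.

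With total counts alone, the median of all genes tested moved to 0.18 in torY and 0.21 in yccU against BW25113, on a log2(CPM + 0.5) scale. Before that shift is taken off, cht-4 was then at 3.24 in torY and 2.89 in yccU, and chs-1 at -1.30 in torY, so these directions did not turn with the scaling.

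The genes whose log2 CPM followed cht-1 most closely over the 33 libraries, among 4765 candidates with a mean of at least 5 CPM, are given as a description. They were fbxc-51, an F-box gene (Pearson r = 0.973), ztf-11, a zinc-finger factor gene (0.967), clec-266, a C-type lectin gene (0.958), hch-1, the gene of a hatching protease (0.950), and cav-1, a caveolin gene (0.946). For chs-2 the closest were blmp-1, a zinc-finger factor gene (0.851), ptp-1, a tyrosine phosphatase gene (0.822), nep-1, a neprilysin gene (0.795), dep-1, a receptor tyrosine phosphatase gene (0.795), and fhod-1, a formin gene (0.777). The points share scaling and depth.

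The lists for cht-4 and cht-3 were drawn after their values were seen. cht-4 was followed most closely by col-111 (0.969), col-104 (0.957) and col-14 (0.954), which are collagen genes, then dpy-9, a cuticle collagen gene (0.946), and cpg-7, a chondroitin proteoglycan gene (0.943). cht-3 was followed by rpa-1, the gene of a replication protein A subunit (0.981), row-1 (0.969), mtr-4, an RNA helicase gene (0.968), mms-19 (0.963) and etc-1, a ubiquitin ligase gene (0.961). The closest genes of the 4 members given here had no gene in common.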

How the data were processed

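Whole-animal RNA was sequenced on a DNBSEQ platform, per the labels. For each of 33 libraries the authors deposited a read count and a TPM value for 18811 gene symbols, per the file headers. The deposited counts are expected counts, since some are not whole. The submitters' processing notes list Bowtie2, HISAT, StringTie and WBcel235, without saying which made the counts. Expected counts (7.78% to 10.0% of them not whole) were rounded. filterByExpr of edgeR 4.0.16 kept 14696 genes; the 4115 dropped had 0.0197% of the counts. TMM factors ran from 0.661 to 1.90. A single quasi-likelihood fit by diet covered all 33 libraries, at a common dispersion of 0.198. Each SE was derived from the fold change and its F statistic (|log2 fold change| / √F). Levels of different genes were compared, untested, on the TPM scale that the authors deposited. Each mutant was set against BW25113 and against the mean of the other 9 mutants, and an F test covered the 10 mutants. The members, the gene lists and the tests were chosen with earlier results of these data known. Genes named beside the members were those of a list called in a mutant against BW25113, at most 3 for each list by lowest p, and the 5 genes nearest to cht-1 and to chs-2; others are named as chosen after their values were seen. Alternatives were RLE scaling, total counts alone, no filter on low counts, a replicate block, 30 mutant libraries alone, 6 libraries of a comparison alone, DESeq2 1.42.0, and each library left out. Gene positions are from Ensembl release 115. Listed genes with no row in the files, such as chil-2 and gna-1, are not analysed here. Libraries with 3 in each group limit the precision, and counting error is not given separately.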

Additional observations from a re-analysis of the deposited data

How the results depend on the processing

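Directions of the mean over the mutants against BW25113 held under each setting tried for cht-1 and cht-4; leaving out 1 library moved the log2 fold change of cht-1 between -1.75 and -1.45 and of cht-4 between 1.10 and 1.52, and that of cht-2 between 0.60 and 2.57. Calls depended more on the settings, and their cause was not tested. Of the members, the F test over the 10 mutants called 1 (cht-4), 0 with total counts alone or with 30 mutant libraries alone, 2 with DESeq2, and 0 to 2 with 1 library left out. Over all genes it called 376, 39 with total counts alone, 202 with 30 mutant libraries alone, 2155 with DESeq2, and 107 to 955 with 1 library left out. Against the other 9 mutants 4 member calls were made, 2 with total counts alone, and 2 to 5 with 1 library left out. Genes called there were 2472 in torY, 588 with total counts alone, and 319 to 3234 with 1 library left out, and 490 in yccU, 76 with total counts alone, 318 with no filter on low counts, and 3 to 1465 with 1 library left out. Against BW25113 the 4 members other than cht-1 gave 2 calls, 1 with total counts alone, 4 with 6 libraries of the comparison alone, and 0 to 3 with 1 library left out. Genes called were 2193 in torY, 823 with total counts alone, 3834 with 6 libraries alone, 3406 with DESeq2, and 0 to 2895 with 1 library left out, and 385 in yccU, 99 with total counts alone, 209 with no filter, 1641 with 6 libraries alone, 1843 with DESeq2, and 0 to 2177 with 1 library left out.

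The replicate numbers are shared by the groups, but the labels tie them to no shared source. Deviations of same-numbered libraries from their group means correlated at -0.739 to 0.751 (median 0.0987 over 165 pairs, 82 of them over 0.1), against a median of -0.0461 for different numbers. Only 1 mutant had all 3 pairs with BW25113 over 0.1, so the numbers were not taken to pair libraries, although 20 of 33 libraries correlated best with their own number, a hint from the data and not the design. With a replicate block, 588 genes were called by the F test, 1097 in yccU against the other mutants and 1169 in yccU against BW25113. The member calls were kept with the block, and cht-2 was also called in torY, against BW25113 (adjusted p = 0.0416, edgeR) and against the other mutants (adjusted p = 0.0318).

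Depth limits cht-2, with 0 to 64 counts per library, and chs-2, with 10 to 134.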
